A study of Homo sapiens with 6 samples.

Results

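Intermediate filament transcripts were examined in MDA-MB-231 cells, a human breast cancer line of the triple-negative, basal type with mesenchymal traits. The genes were 6 keratins (KRT7, KRT8, KRT18, KRT19, KRT80 and KRT81), vimentin (VIM) and 3 nuclear lamins (LMNA, LMNB1 and LMNB2). They were taken from the deposited expression table as the rows whose gene name, split at commas, held one of these symbols. All 10 genes were found, on 10 of the 24108 rows, and all 10 rows were among the 11777 with a mean of at least 1 FPKM that were tested. FPKM counts the sequenced fragments of a transcript relative to its length in kilobases and to the total mapped in the library, so levels of different genes can be set side by side. No gene of the 10 was at 0 in any sample.

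RNA-seq was performed on 3 shCtr samples and 3 shZNF148 samples, to ask which transcripts change when the zinc finger transcription factor ZNF148 is depleted. Both groups received a lentiviral hairpin for 48 h and then 24 h of puromycin at 0.5 µg/mL, and both are pools of selected cells rather than single clones. The shCtr cells carried an LKO hairpin against luciferase, which human cells lack. The shZNF148 cells carried a single hairpin against ZNF148, so an effect of ZNF148 loss and an off-target effect of that hairpin cannot be told apart. The labels number the samples 1 to 3 in each group but do not say whether they came from separate cultures, and the p-values measure only the spread between these samples, which may be technical.

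The sequence that the shZNF148 hairpin targets is shown because it is what separates the groups.
shZNF148: cccttggtgaatgtaaatgat
ZNF148, on chromosome 3 (chr3:125225669-125375325, minus strand), was measured at 3.72, 4.36 and 4.30 FPKM in shCtr replicates 1 to 3 and at 0.914, 0.282 and 0.834 FPKM in shZNF148 replicates 1 to 3. Every knockdown sample was below every control sample, and replicate 2 was the lowest. The mean of shZNF148 was 16.4% of that of shCtr, with a log2 fold change of -1.63 (SE 0.18, limma, adjusted p = 0.0099). Log2 fold changes were computed on log2(FPKM + 1), which understates the change of low genes, and p-values were adjusted over all tested rows by the Benjamini-Hochberg method, with 0.05 as the threshold.

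Intermediate filaments are rope-like polymers of coiled-coil proteins that give cells and nuclei mechanical strength. Keratins are obligate heteropolymers that pair a type II chain (KRT7, KRT8, KRT80 and KRT81 here) with a type I chain (KRT18 and KRT19 here). KRT8, KRT18, KRT19 and KRT7 mark simple epithelia, KRT80 belongs to the epithelial keratins and KRT81 is a hair keratin. Vimentin is the type III protein of mesenchymal cells, and breast cancer cells that have gained mesenchymal traits often hold it together with keratins. The lamins line the inner nuclear membrane, where LMNA encodes lamins A and C and LMNB1 and LMNB2 encode the B-type lamins.

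The 10 genes lie on 6 chromosomes in GENCODE 44 on GRCh38, with 5 of them in the keratin cluster of chromosome 12. There, KRT80 (chr12:52168996-52192014, minus strand) lies 40.5 kb from KRT7 (chr12:52232520-52252186, plus strand), which is followed by KRT81 (chr12:52285913-52291534, minus strand). KRT8 (chr12:52897187-52949954, minus strand) and KRT18 (chr12:52948871-52952906, plus strand) are neighbours whose annotated spans overlap by 1084 bases on opposite strands. Whether the strand was used when reads were assigned is not stated, so reads from the shared bases could fall to either gene. KRT19 is at chr17:41523617-41528308, VIM at chr10:17228241-17237593, LMNA at chr1:156082573-156140081, LMNB1 at chr5:126776623-126837020 and LMNB2 at chr19:2427638-2456959.

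KRT19 and KRT81 have no row of their own. KRT19 is on a row shared with KRT17, a basal-type keratin gene 91.1 kb away, and KRT81 is on a row shared with the hair keratin genes KRT83 and KRT85. The value of such a row cannot be assigned to one gene, and both are called by all of their genes below. Keratins also share sequence among paralogs, and how reads that match several of them were treated is not stated.

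ZNF148 is known to bind G- and C-rich DNA, and the 250 bases before the transcription start are shown for the 3 genes whose RefSeq entry (GRCh38.p14) begins at the canonical start, a set that held LMNB2, VIM and LMNB1. LMNA and KRT8 had entries only at other starts. KRT7, KRT18, KRT19, KRT80 and KRT81 had no entry, so their promoters could not be examined. The sequences run 5′ to 3′ on the strand of the gene, and capitals mark each CCTCCC or GGGAGG, a C-rich run of 6 bases searched on both strands.
VIM, chr10:17227991-17228240, plus strand: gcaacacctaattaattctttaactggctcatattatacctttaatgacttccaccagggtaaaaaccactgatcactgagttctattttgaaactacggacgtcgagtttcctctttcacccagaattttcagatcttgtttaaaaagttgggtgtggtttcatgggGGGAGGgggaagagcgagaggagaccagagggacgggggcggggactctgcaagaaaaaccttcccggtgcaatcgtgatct
LMNB1, chr5:126776886-126777135, plus strand: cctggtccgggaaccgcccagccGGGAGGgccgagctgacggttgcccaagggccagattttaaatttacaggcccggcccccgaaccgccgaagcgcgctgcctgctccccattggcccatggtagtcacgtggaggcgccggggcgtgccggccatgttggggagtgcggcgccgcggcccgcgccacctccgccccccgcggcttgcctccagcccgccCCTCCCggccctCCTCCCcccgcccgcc
LMNB2, chr19:2456960-2457209, minus strand: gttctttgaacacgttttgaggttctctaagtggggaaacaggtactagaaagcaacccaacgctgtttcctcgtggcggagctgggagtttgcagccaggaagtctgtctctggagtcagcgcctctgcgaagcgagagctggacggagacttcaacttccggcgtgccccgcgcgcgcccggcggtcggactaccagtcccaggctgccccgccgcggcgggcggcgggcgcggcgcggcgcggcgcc
The motif occurred 1 time before VIM, 3 times before LMNB1 and 0 times before LMNB2. Among the 35116 RefSeq promoter windows of this length, 45.6% held at least 1 match and 7.50% held at least 3. The GC content was 46.0% before VIM, 75.6% before LMNB1 and 66.4% before LMNB2, against a median of 58.0% over all windows. These counts describe letters in a window, and binding was not measured here.

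In the control cells vimentin was by far the most abundant of these transcripts. VIM was measured at 1842, 1708 and 1766 FPKM in the shCtr samples, a mean of 1772 ± 67.6 FPKM (SD, n = 3) at percentile 99.8 of the tested rows. It was 4.33 times the level of KRT7, the most abundant keratin, at 409 ± 20.6 FPKM. LMNA followed at 320 ± 10.9 FPKM, then the KRT17/KRT19 row at 265 ± 28.4 FPKM. KRT18 and KRT8 were next, with 162 ± 11.97 and 158 ± 4.70 FPKM. Below them stood LMNB2 at 117 ± 2.72 FPKM, LMNB1 at 74.8 ± 2.23 FPKM and KRT80 at 38.9 ± 2.02 FPKM. The KRT81/KRT83/KRT85 row was the lowest at 9.90 ± 0.0922 FPKM, in the middle of the tested rows (percentile 43.4). In this order KRT18 and KRT8 were the only neighbours whose shCtr samples overlapped. All other neighbours were in the same order in each of the 3 control samples.

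Most of the keratin signal came from genes of simple epithelium. The table holds 52 keratin rows, of which 32 were at 0 in all samples and 9 had a mean of at least 1 FPKM. The basal keratin genes KRT5, KRT6A and KRT6B were at 0 in every sample, and KRT14 had a mean of 0 FPKM in shCtr against 0.023 FPKM after knockdown. The basal-type keratin KRT17 could not be judged, because it shares its abundant row with KRT19, so basal keratin expression cannot be called absent. In shCtr, KRT7 made up 36.3% ± 0.147 (SD, n = 3) of the summed keratin FPKM, the KRT17/KRT19 row 23.4% ± 1.37, KRT18 14.3% ± 0.498, KRT8 13.99% ± 0.516 and KRT80 3.46% ± 0.176. KRT10, a type I keratin of the suprabasal epidermis, held most of the remainder, at 78.9 ± 6.14 FPKM.

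**Figure D1:**
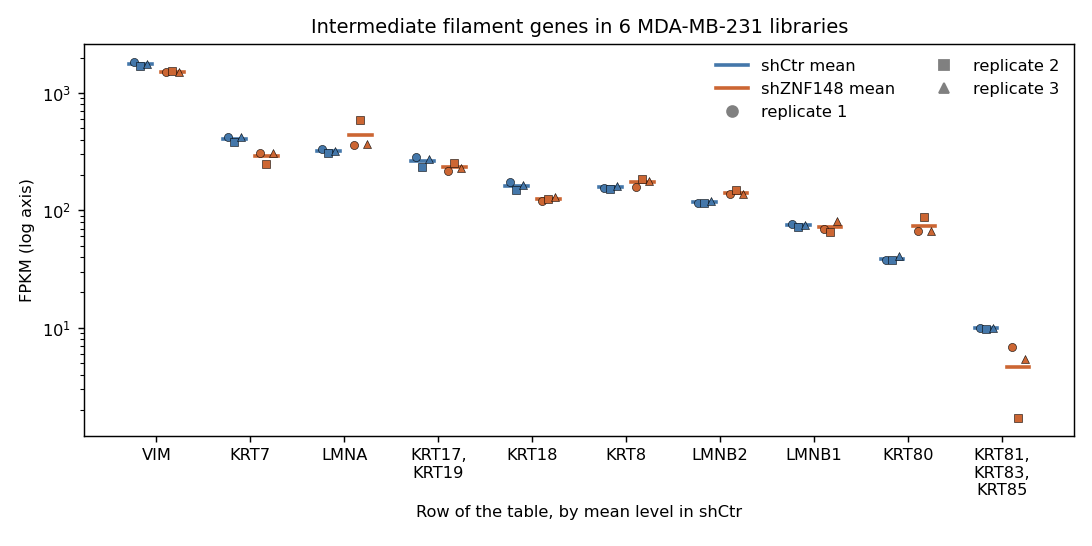
Levels in FPKM (log axis) of the 10 rows in the 6 samples, ordered by their mean in shCtr. Points are samples (shape gives the replicate number) and lines are group means. The shZNF148 samples of KRT80 and LMNB2 lie above all shCtr samples, those of VIM, KRT7 and KRT18 lie below, and shZNF148 replicate 2 stands apart for LMNA and the KRT81/KRT83/KRT85 row.

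After ZNF148 knockdown the keratins did not move as one. KRT80 rose and KRT7 and KRT18 fell, LMNB2 rose, and the other 6 rows did not pass the test. The 4 rows that passed are 40.0% of the members, against 13.6% of all tested rows (5.46% higher and 8.13% lower). One of the 10, KRT80, also changed more than 1.5-fold, as did 5.49% of all tested rows. The groups did not overlap for 7 of the 10 rows (3 higher and 4 lower in shZNF148), against 41.0% of all tested rows. The median log2 fold change of the 10 rows was -0.13, and that of all tested rows was 0.01. An exact two-sided permutation test of 3 samples against 3 cannot give a p below 0.1, and it gave p = 0.1 for each of these 7 rows.

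**Figure D2:**
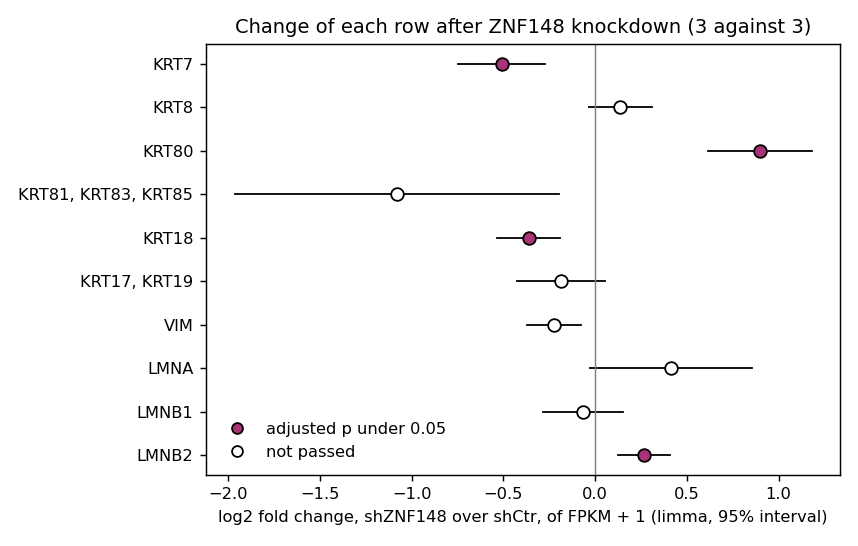
Log2 fold change of each row, shZNF148 over shCtr on log2(FPKM + 1), with its 95% confidence interval from limma (3 samples against 3). Filled points passed an adjusted p of 0.05. KRT80 at 0.90 and LMNB2 at 0.27 are above 0, KRT7 at -0.51 and KRT18 at -0.36 are below 0, and the KRT81/KRT83/KRT85 row has the widest interval.

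Among the type II keratins, KRT80 nearly doubled. It was measured at 37.7, 37.8 and 41.3 FPKM in shCtr and at 67.0, 88.3 and 66.6 FPKM in shZNF148. All knockdown samples were above all controls, and replicate 2 was the highest. The mean went from 38.9 ± 2.02 to 74.0 ± 12.4 FPKM (SD, n = 3), a log2 fold change of 0.90 (SE 0.12, 95% interval 0.61 to 1.18, limma, adjusted p = 0.0120). Its gain brought it to the level of LMNB1, with which it overlapped in shZNF148 and not in shCtr.

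KRT7, the neighbour of KRT80 and the main keratin of these cells, fell. It was measured at 419, 385 and 423 FPKM in shCtr and at 308, 248 and 309 FPKM in shZNF148. The groups did not overlap, and replicate 2 was the lowest of the knockdown samples. The log2 fold change was -0.51 (SE 0.10, 95% interval -0.75 to -0.27, limma, adjusted p = 0.0272). The KRT7 to KRT80 ratio, chosen after both values were seen and given as a description, was 11.1, 10.2 and 10.3 in shCtr and 4.59, 2.81 and 4.64 in shZNF148.

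KRT8, the type II partner of KRT18 in simple epithelia, did not pass the test. The shCtr samples held 156, 154 and 163 FPKM and the shZNF148 samples 159, 184 and 178 FPKM, and the groups overlapped through shZNF148 replicate 1. The log2 fold change was 0.14 (SE 0.07, 95% interval -0.03 to 0.31, limma, adjusted p = 0.224). The KRT81/KRT83/KRT85 row was measured at 9.95, 9.79 and 9.95 FPKM in shCtr and at 6.85, 1.71 and 5.43 FPKM in shZNF148. All knockdown samples were lower, but their spread was wide, with replicate 2 far below the others. Its log2 fold change of -1.08 (SE 0.37, 95% interval -1.96 to -0.20) did not pass the test (limma, adjusted p = 0.0951), and without shZNF148 replicate 2 it was -0.62 with an adjusted p of 0.0210.

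Among the type I keratins, KRT18 fell. It was measured at 173, 149 and 163 FPKM in shCtr and at 121, 124 and 130 FPKM in shZNF148. The knockdown samples lay close together and below every control. The log2 fold change was -0.36 (SE 0.07, 95% interval -0.54 to -0.19, limma, adjusted p = 0.0285). The KRT17/KRT19 row was measured at 286, 233 and 276 FPKM in shCtr and at 216, 253 and 227 FPKM in shZNF148, and the groups overlapped. Its log2 fold change was -0.19 (SE 0.10, 95% interval -0.43 to 0.05, limma, adjusted p = 0.239).

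The balance within the KRT8 and KRT18 pair was compared next. The ratio of KRT8 to KRT18 FPKM was 0.904, 1.03 and 0.998 in the shCtr samples and 1.31, 1.48 and 1.36 in the shZNF148 samples. In all 3 knockdown samples KRT8 stood above KRT18, and each ratio was above those of all controls. The mean ratio was 1.42 times higher, with p = 0.1 in an exact two-sided permutation test, the smallest that 3 against 3 allows (0.2 after adjustment over the 6 ratios computed, of which 3 were chosen after the data were seen).

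As shares of the summed keratin FPKM, KRT7 stood at 36.3% ± 0.147 in shCtr and 29.5% ± 3.28 in shZNF148 (SD, n = 3 each). KRT80 stood at 3.46% ± 0.176 and 7.58% ± 1.36, and KRT8 at 13.99% ± 0.516 and 17.8% ± 1.32. KRT18 went from 14.3% ± 0.498 to 12.8% ± 0.280, while the KRT17/KRT19 row overlapped, at 23.4% ± 1.37 and 23.8% ± 2.10. The groups did not overlap for the shares of KRT7, KRT8, KRT80, KRT18 and the KRT81/KRT83/KRT85 row. Each of these 5 had p = 0.1 in the exact permutation test, and 0.14 after adjustment over the 7 shares. KRT7 remained the largest share in shZNF148 replicates 1 and 3, while in replicate 2 the KRT17/KRT19 row, at 26.2%, was slightly above KRT7 at 25.7%. The sum over the type II members was 1.45 ± 0.0901 times that of the type I members in shCtr and 1.52 ± 0.114 times in shZNF148, and these groups overlapped.

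**Figure D3:**
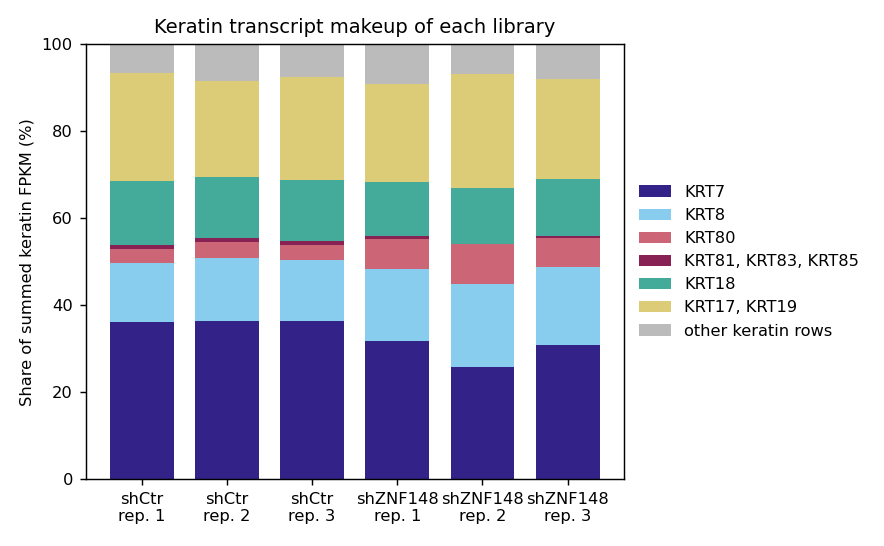
Each bar is 1 sample, split into the share (%) of summed keratin FPKM held by each keratin row, with all other keratin rows in grey. The KRT80 segment is between 3.25% and 3.57% in shCtr and between 6.68% and 9.14% in shZNF148, and the KRT7 segment is smaller in all 3 shZNF148 samples.

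Summed over all keratin rows, shCtr held 1127 ± 59.1 FPKM and shZNF148 held 977 ± 17.3 FPKM (SD, n = 3), and the groups did not overlap. The sum of all FPKM in the table was also higher in shCtr (497730 to 507312) than in shZNF148 (469594 to 488173). As a share of that sum, keratins held 0.225% ± 0.0114 in shCtr and 0.205% ± 0.00728 in shZNF148, and the groups then overlapped.

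VIM stayed the most abundant of the 10 transcripts. It was measured at 1507, 1528 and 1513 FPKM in shZNF148, against 1842, 1708 and 1766 FPKM in shCtr. The knockdown samples were all lower and had an SD of only 11.0 FPKM (n = 3). The log2 fold change of -0.22 (SE 0.06, 95% interval -0.37 to -0.08) did not pass the test (limma, adjusted p = 0.0563). As a share of all FPKM, VIM was at 0.353% ± 0.0108 in shCtr and 0.317% ± 0.00460 in shZNF148 without overlap. After quantile normalization, which sets every sample to the same distribution, the VIM log2 fold change was -0.06 (limma, adjusted p = 0.576). With median-of-ratios rescaling, which divides each sample by a single factor, it was -0.23 (limma, adjusted p = 0.0550). The ratio of VIM to summed keratin overlapped, at 1.57 ± 0.0489 and 1.55 ± 0.0326 (exact permutation p = 0.5).

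The lamins did not move together either. LMNB2 was measured at 116, 116 and 121 FPKM in shCtr and at 137, 150 and 139 FPKM in shZNF148. It rose in every knockdown sample by an amount larger than the spread within either group, with a log2 fold change of 0.27 (SE 0.06, 95% interval 0.13 to 0.41, limma, adjusted p = 0.0356). LMNB1, the other B-type lamin, was measured at 77.1, 72.6 and 74.7 FPKM in shCtr and at 68.9, 65.0 and 81.4 FPKM in shZNF148. Its groups overlapped, and the log2 fold change was -0.07 (SE 0.09, 95% interval -0.28 to 0.15, limma, adjusted p = 0.645). The LMNB2 to LMNB1 ratio, also chosen after the data were seen and given as a description, had a mean of 1.57 ± 0.0622 in shCtr (SD, n = 3), where the highest was 1.61, and was 1.99, 2.30 and 1.71 in shZNF148.

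LMNA was measured at 331, 310 and 320 FPKM in shCtr and at 359, 588 and 370 FPKM in shZNF148. All knockdown samples were above all controls, with replicate 2 far above the rest. The log2 fold change was 0.41 (SE 0.19, 95% interval -0.03 to 0.86) and did not pass the test (limma, adjusted p = 0.169), and without shZNF148 replicate 2 it was 0.18 (adjusted p = 0.0702). In all 3 knockdown samples LMNA stood above KRT7, the reverse of their order in all 3 controls. The ratio of LMNA to the sum of LMNB1 and LMNB2 was 1.72, 1.64 and 1.64 in shCtr and 1.74, 2.74 and 1.68 in shZNF148, and these groups overlapped (exact two-sided permutation p = 0.2). Summed lamin FPKM was 513 ± 13.1 in shCtr and 652 ± 131 in shZNF148, where replicate 2 held 802 FPKM.

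**Figure D4:**
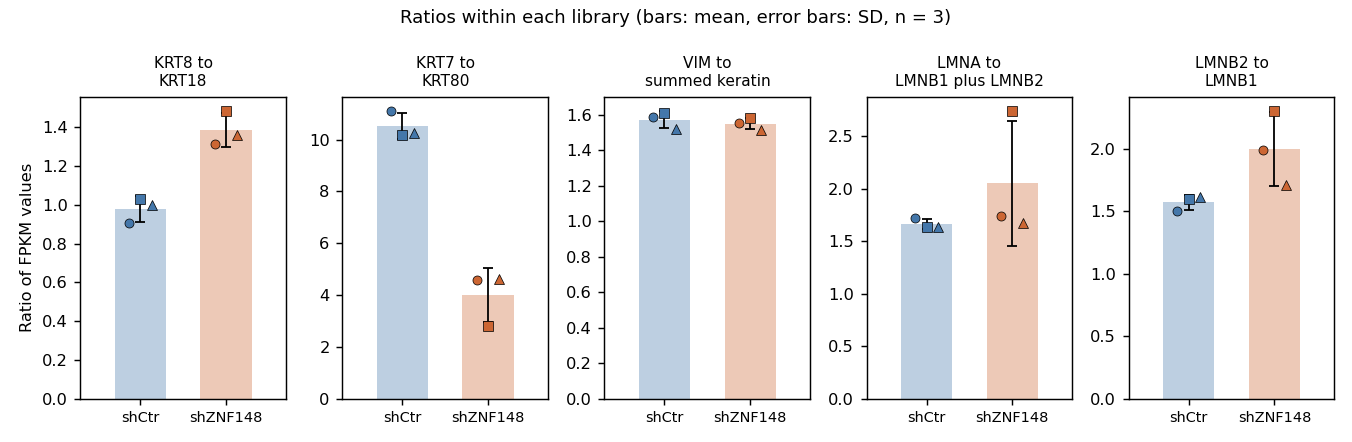
Ratios of FPKM values within each sample. Bars are means, error bars are SD (n = 3) and points are samples, with shape giving the replicate number. KRT8 to KRT18 and LMNB2 to LMNB1 are higher and KRT7 to KRT80 is lower in all shZNF148 samples, VIM to summed keratin overlaps, and LMNA to the B-type lamins is set apart in shZNF148 replicate 2 at 2.74.

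Replicate 2 of shZNF148 had the lowest ZNF148 level and stood apart from its group more than the other samples did. The median absolute log2 difference of a sample from the other samples of its group was 0.176 for it and 0.0844 to 0.137 for the rest. Of the 10 rows, 7 had this sample as the knockdown sample farthest from the shCtr mean, against 51.1% of all tested rows. Read depth is unknown from FPKM, but the steps between low values gave relative depths of 0.806 to 1.13 of that of shCtr replicate 1, with shZNF148 replicate 3 the shallowest.

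The calls depended on single libraries, as did those over all rows. KRT80 did not pass without shCtr replicate 1 (adjusted p = 0.0710) or replicate 3 (0.0579). KRT7 did not pass without shCtr replicates 1, 2 or 3 (0.107, 0.0658 and 0.0997) or shZNF148 replicate 1 (0.0536). KRT18 did not pass without these same samples (0.109, 0.0511, 0.104 and 0.0756), nor did LMNB2 (0.132, 0.0955, 0.106 and 0.0685), which was also lost without shZNF148 replicate 3 (0.0565). The number of all rows passing limma was 29, 312 and 47 without shCtr replicates 1, 2 and 3, 403 without shZNF148 replicate 1 and 1086 without replicate 3, against 1600 with all samples. Only without shZNF148 replicate 2 did the number rise, to 1731. The direction of these 4 genes was the same each time, with log2 fold changes of 0.77 to 0.97 for KRT80, -0.56 to -0.41 for KRT7, -0.42 to -0.31 for KRT18 and 0.23 to 0.29 for LMNB2.

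For each of the 4 genes that passed, the rows of at least 10 FPKM (6685 in all) with the most similar profile over the 6 samples were listed by the root mean square difference in centred log2(FPKM + 1). The profile nearest to KRT18 was SH3BP5L at 0.009, followed by OAZ2 at 0.033 and ENO2 at 0.035. For KRT7 they were NAE1 (0.044), UBA2 (0.046) and TMEM41B (0.047). For KRT80 the nearest were DUSP10 (0.057), HMOX1 (0.065) and ZCCHC24 (0.067). LMNB2 was most like RCC2 (0.025), the shared row of ZNF253, ZNF486 and ZNF93 (0.027) and PTRF (0.027). No other row of the 10 was among them.

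Other filament genes, and the proteins that filaments attach to, were read from lists of genes. The counts below stand against 13.6% of all tested rows that passed, 5.46% higher and 8.13% lower. Of 25 further type I keratin genes, 3 were tested and none passed, with a median log2 fold change of -0.26. KRT10 overlapped between the groups, at 78.9 ± 6.14 and 74.9 ± 12.2 FPKM (log2 fold change -0.08, limma, adjusted p = 0.678). Of 20 further type II genes none reached a mean of 1 FPKM. Of 12 type III, type IV and lens filament genes 5 were tested and 2 rose, with a median of 0.55. NES, which encodes nestin, a type IV filament protein of progenitor cells, was at 5.86, 5.92 and 5.24 FPKM in shCtr and at 9.71, 7.93 and 10.3 FPKM in shZNF148. Its log2 fold change was 0.62 (SE 0.11, limma, adjusted p = 0.0228). SYNM, which encodes synemin, a partner that co-assembles with vimentin, went from 6.01 ± 0.584 to 9.29 ± 1.11 FPKM (log2 fold change 0.55, SE 0.11, limma, adjusted p = 0.0293).

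Of 8 plakin and linker genes, which tie filaments to junctions and to other cytoskeletal systems, 7 were tested, 1 rose and 2 fell (median -0.22). PLEC, which encodes plectin, rose from 177, 161 and 173 FPKM in shCtr to 241, 307 and 231 FPKM in shZNF148 (log2 fold change 0.60, SE 0.11, limma, adjusted p = 0.0255). DSP, which encodes desmoplakin, the anchor of keratins at desmosomes, fell from 41.5 ± 1.02 to 32.9 ± 1.24 FPKM (log2 fold change -0.33, SE 0.06, limma, adjusted p = 0.0233). DST, which encodes dystonin, whose epithelial form anchors keratins at hemidesmosomes, fell from 66.0 ± 2.06 to 52.0 ± 4.76 FPKM (-0.34, SE 0.08, limma, adjusted p = 0.0400). The shared row of MACF1 and KIAA0754 was at 79.9 ± 1.91 and 68.8 ± 5.73 FPKM and did not pass (limma, adjusted p = 0.0932).

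Of 13 desmosome genes 6 were tested, none rose and 2 fell (median -0.21). JUP, which encodes the desmosomal plaque protein plakoglobin, was at 28.5, 29.3 and 28.6 FPKM in shCtr and at 17.8, 20.9 and 15.9 FPKM in shZNF148, without overlap. Its log2 fold change was -0.65 (SE 0.10, limma, adjusted p = 0.0179). DSG2, which encodes the desmosomal cadherin desmoglein 2, fell from 37.8 ± 2.91 to 25.2 ± 2.61 FPKM (log2 fold change -0.57, SE 0.10, limma, adjusted p = 0.0206).

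Of 18 genes of the nuclear lamina and of the LINC complex, which couples the lamina to the cytoskeleton, 16 were tested and 1 rose (median -0.05). TOR1AIP1, which encodes the lamina-associated protein LAP1, went from 22.1 ± 0.412 to 27.5 ± 1.94 FPKM (log2 fold change 0.30, SE 0.07, limma, adjusted p = 0.0405). The abundant members EMD, TMPO, BANF1, SUN1, SUN2, NUP153 and TMEM43, each over 50 FPKM in shCtr, did not pass. Their log2 fold changes lay between -0.26 for SUN2 and 0.12 for NUP153. Of 6 lamin processing genes all 6 were tested and 1 rose (median 0.13). ICMT, the enzyme that methylates the farnesylated end of prelamin A and the B-type lamins, was at 23.6, 25.2 and 25.4 FPKM in shCtr and at 33.9, 38.3 and 31.1 FPKM in shZNF148 (log2 fold change 0.46, SE 0.09, limma, adjusted p = 0.0264). The 9 partner genes that passed each lost the call without any 1 of the shCtr replicates (adjusted p of 0.0785 to 0.135, 0.0586 to 0.105 and 0.0749 to 0.135 without replicates 1, 2 and 3) and without shZNF148 replicate 1 (0.0533 to 0.0966).

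**Figure D5:**
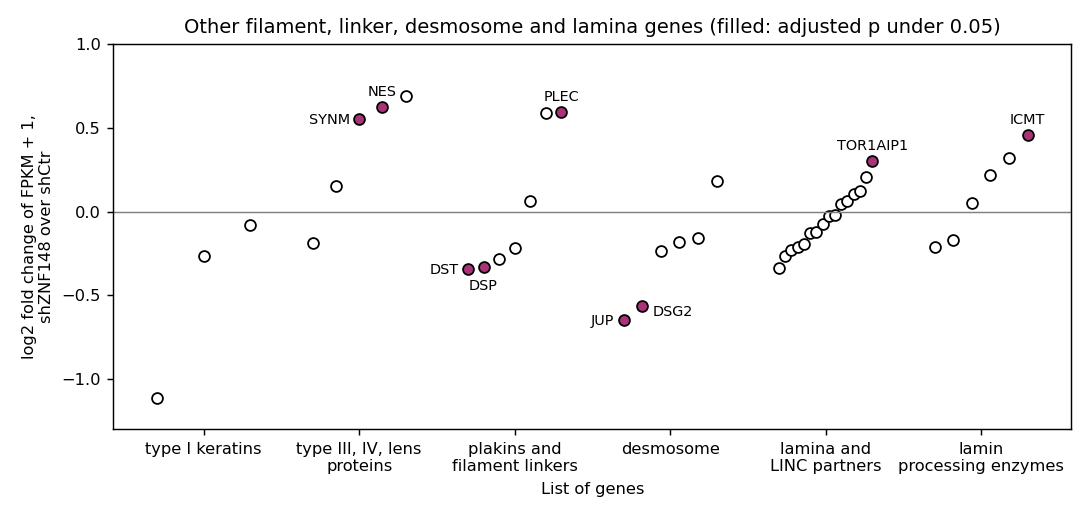
Log2 fold change of log2(FPKM + 1), shZNF148 over shCtr, of each tested gene of the partner lists, sorted within its list. Filled points passed an adjusted p of 0.05 and are named. NES, SYNM, PLEC, TOR1AIP1 and ICMT are above 0, and DSP, DST, JUP and DSG2 are below 0.

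The cell line was checked against markers. ESR1 was at 0 in all samples, PGR was under 0.1 FPKM in both group means and CDH1, the epithelial cadherin, had a mean of 0.368 FPKM in shCtr. Other luminal markers differed in shCtr, with CLDN4 at 106, MUC1 at 11.0 and EPCAM at 10.6 FPKM but FOXA1 at 0. Mesenchymal markers differed too, with CD44 at 588, AXL at 345 and FN1 at 155 FPKM. CDH2 was at only 0.482 FPKM, SPARC at 0.742 FPKM and TWIST1 at 0. The row shared by ERBB2 and MIR4728 was at 20.1, 126 and 20.1 FPKM in shCtr and at 24.8, 125 and 21.9 FPKM in shZNF148, with the high value in replicate 2 of both groups. The leukocyte markers PTPRC and CD3E and all 4 endothelial markers had means under 1 FPKM, as had 3 of 6 fibroblast markers. Those means hide 1 library, since DCN was at 2.82 FPKM in shCtr replicate 2 and at 0 in all other samples. LUM (0.323 FPKM), the shared row of COL3A1 and MIR3606 (0.448 FPKM) and COL1A1 (6.62 FPKM) were also highest of all samples in shCtr replicate 2, while COL1A2 and PDGFRB were not. Within each group, replicate 2 was the highest for COL1A2 (9.65 FPKM in shCtr and 17.1 FPKM in shZNF148). The same held for COL1A1 (3.63 FPKM in shZNF148) and the COL3A1 row (0.247 FPKM in shZNF148). PDGFRB was lowest in replicate 2 of each group (5.41 and 2.00 FPKM). The reason was not tested. COL1A1 (5.06 and 3.44 FPKM in shCtr and shZNF148), COL1A2 (6.801 and 12.96 FPKM) and PDGFRB (5.98 and 4.32 FPKM) were tested and did not pass. CD14, a monocyte marker, was at 0.692 and 1.25 FPKM. CD68, a lysosomal gene listed with the leukocyte markers, fell from 117 to 81.7 FPKM (limma, adjusted p = 0.0233). The summed level of the 12 luminal markers, which include KRT7, KRT8, KRT18 and KRT19, was 1055 to 1182 FPKM in shCtr and 932 to 991 FPKM in shZNF148. The sum of the 11 basal markers, which include the KRT17/KRT19 row, was 810 to 872 and 669.7 to 724 FPKM, and that of the 9 mesenchymal markers, of which VIM is the most abundant, 2850 to 2961 and 2352 to 2429 FPKM. All 3 sums were lower in shZNF148 without overlap, but they contain the rows they stand beside, and their part in the keratin and VIM values was not tested. The sum of all FPKM was also lower in shZNF148 without overlap, and the marker sums were not taken as a share of it. Of all tested rows, 41.0% did not overlap between the groups. Not every marker was lower, since the log2 fold change was above 0 for 3 of 9 tested luminal markers (KRT8, GATA3 and CLDN4) and 1 of 6 mesenchymal markers (SNAI2), none of which passed, and for 0 of 6 basal markers. Lower calls were made for 3 of 9 luminal markers (KRT7, KRT18 and MUC1) and 2 of 6 mesenchymal markers (CD44 and AXL). The same held for 4 of 6 basal markers (ITGA6, ITGB4, EGFR and CAV2), and no marker of the 3 lists passed higher. Of all tested rows, 8.13% passed lower and 5.46% higher. In bulk samples of 1 cell line, fewer cells expressing a marker and less of its RNA per cell cannot be told apart.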

How the data were processed

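Transcript levels were compared between 3 shCtr and 3 shZNF148 samples of MDA-MB-231 cells, grouped by the labels. The authors deposited 1 table of normalised FPKM values, and 0 per-sample columns were left unused. The submitters' processing notes name bcl2fastq 2.17.1.14, TopHat2 2.0.14, Cufflinks 2.2.1 and Cuffnorm 2.2.1 with builds hg18 and hg19, whereas the methods of the study name Salmon, GRCh38 and DESeq2. Which of them made the table is not stated, and read counts and depth are unknown.

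Rows whose mean over the 6 samples reached 1 FPKM were taken as log2(FPKM + 1) into a linear model of condition alone (limma 3.58.1 under R 4.3.3). Moderation by eBayes followed a mean-variance trend. The Benjamini-Hochberg adjustment of p-values covered all 11777 rows. The procedure was tested on simulated data. Shares, ratios and single genes were compared by exact two-sided permutation tests with numpy 2.4.6 under Python 3.11.15, and scipy 1.17.1 was used for the confidence intervals. For a symbol on more than 1 row, its most abundant row was taken. Older symbols were matched through tables of gene names, and coordinates and promoters came from GENCODE 44 and RefSeq.

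The members and lists were chosen with earlier results of these data known. All members were named, as were listed partner genes that passed or exceeded 50 FPKM in shCtr, and the 3 rows most like each member that passed. Genes named in the marker check fall outside this rule, and 1 listed marker is not reported here. Alternatives were the filter on low values, the pseudocount, quantile normalization, median-of-ratios rescaling, summing rows that share a symbol, the replicate block, the moderation of variances and leaving out each sample.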

Additional observations from a re-analysis of the deposited data

How the results depend on the processing

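Over 17 alternative settings, 147 of 170 values of the 10 members kept their direction and their side of the threshold, 18 were weaker, 4 were stronger and 1 reversed. The one that reversed was LMNB1, whose log2 fold change was 0.0018 without shZNF148 replicate 2 (limma, adjusted p = 0.990) and ranged down to -0.16 without each of the other samples. Among the 18 partner genes followed in the same way, 49 of 306 values were weaker, 2 were stronger and 5 reversed. All 9 partners that had passed lost the call without each shCtr replicate and without shZNF148 replicate 1, and 8 of the 9, all but JUP, lost it under the replicate block (adjusted p up to 0.0879). DST also lost it with quantile normalization, and DST and TOR1AIP1 with no filter or no mean-variance trend. Those that reversed were KRT10 (leave-one-out log2 fold changes of -0.18 to 0.049) and TMPO (-0.19 to 0.0074), both without shZNF148 replicate 2, and TMEM43 (-0.095 to 0.024), without shZNF148 replicates 1 and 3 and with quantile normalization (0.015). VIM passed with a filter at 5 FPKM (adjusted p = 0.0379), a pseudocount of 0.1 (0.0454) or robust moderation (0.0472). LMNB2 did not pass without the mean-variance trend (0.0551).

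With a pseudocount of 5 FPKM 280 rows were called at 1.5-fold, fewer than the 647 with 1 FPKM. With the replicate number as a block, limma passed 401 rows, called 315 at 1.5-fold and passed 2 members, KRT7 (adjusted p = 0.0481) and KRT80 (0.0446), while KRT18 (0.0669) and LMNB2 (0.0864) did not pass. Deviations from the group means of same-numbered samples correlated at 0.001, -0.088 and 0.030 across rows, which gave no sign of pairing over the table. A correlation over all rows cannot show a difference between replicates that is confined to few rows. The ERBB2 row was high in replicate 2 of both groups, and COL1A1, COL1A2 and the COL3A1 row were highest there within each group. Leaving out each sample in turn gave 29 to 1731 rows passing, 29 to 608 rows called, 0 to 5 members passing and 0 to 2 members called at 1.5-fold. No member passed without shCtr replicate 1 or 3. With 5 samples fewer degrees of freedom remain, and other causes were not tested. Depth is unknown, so counting error could not be separated from other spread.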
